A study of Arabidopsis thaliana with 32 samples.

Results

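The brassinosteroid synthesis and signalling genes described here are 10 genes of Arabidopsis, of the 34262 genes in the expression table. They were chosen by name, by a rule that uses no measured value but was set with earlier results of these data known. The synthesis genes are DWF4 (AT3G50660), CPD (AT5G05690), DET2 (AT2G38050), ROT3 (AT4G36380) and BR6OX2 (AT3G30180), and the inactivation gene is BAS1 (AT2G26710). The signalling genes are BRI1 (AT4G39400), BIN2 (AT4G18710), BZR1 (AT1G75080) and BES1 (AT1G19350). All 10 passed the filter on low values, a mean of at least 1 RPKM over the 12 RNA-seq libraries, as did 18072 genes in all.

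Brassinosteroids are plant steroid hormones that promote cell elongation and seedling growth. They are made from sterols by a short chain of enzymes, most of them cytochrome P450s, and are inactivated by others. At the cell surface the hormone binds the receptor kinase BRI1. The signal switches off the inhibitory kinase BIN2, and the transcription factors BZR1 and BES1, which BIN2 otherwise phosphorylates, then act in the nucleus. Active signalling lowers the transcripts of synthesis genes and raises those of inactivation genes, a feedback that is part of textbook knowledge, and auxin and brassinosteroid pathways share many target genes.

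The RNA-seq libraries came from whole seedlings, 15 days old, of the wild type and of a line labelled fip37 LEC1:FIP37. Each genotype was given mock or 50 µM NAA, a synthetic auxin, for 3 h, with 3 replicates in each of the 4 groups. FIP37 belongs to the enzyme complex that methylates mRNA to form N6-methyladenosine (m6A). In the line, by its name, the fip37 mutation is combined with FIP37 under the promoter of LEC1, a gene of embryo development. The m6A peak lists came from seedlings of the same age. They cover the wild type given mock or NAA, the mutant tmk4-1 (of the receptor-like kinase TMK4) given NAA, and lines overexpressing FIP37 from the 35S promoter as 35S:FIP37 or 35S:FIP373A, with 2 immunoprecipitates and 2 inputs each. For the 35S lines the labels name no treatment, nor do they spell out what 3A stands for.

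FIP37 itself ran against the label. The libraries labelled fip37 LEC1:FIP37, below the labelled libraries, held 57.9 to 120 RPKM of it (read counts scaled to gene length and library size), against 11.3 to 23.3 RPKM in the wild type, so every direction between genotypes below is that of libraries carrying this label. Read totals are not given with the table, and depth, estimated from the smallest steps of the values and given relative to the first wild-type mock library, lay between 83.6% and 152%. One library stood apart, the third of wild-type NAA. There 1718 genes differed by 2-fold or more from the mean of the group's other replicates, against 22 to 392 genes in the other 11 libraries, and its summed level of 3 heat-shock genes was 118 RPKM against 7.13 and 11.4 RPKM in the other wild-type NAA libraries. The auxin-induced gene GH3.3 rose with NAA in both genotypes, with log2 fold changes of 4.82 and 3.32, and so did IAA19, with 3.54 and 1.64. SAUR15, the other auxin control, rose by 3.07 in the wild type and did not pass in the labelled libraries (0.24). The NAA effect on each of these 3 controls was smaller in the labelled libraries (differences of -1.51, -1.91 and -2.83, limma adjusted p = 0.0319, 0.0155 and 0.00146). The submitters call the wild-type replicates biological. For the other line the labels do not say so, and its p-values measure only the spread between these samples, which may be technical.

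Among the 10 genes, NAA in the wild type raised BAS1 and lowered CPD, BR6OX2 and BES1. NAA raised BAS1 alone in the labelled libraries. Compared with the wild type under mock, those libraries had higher BES1 and lower BAS1, BIN2 and BZR1. Under NAA they had higher CPD, DET2, BR6OX2 and BES1, and lower BIN2 and BZR1. A gene was called at an adjusted p under 0.05 in limma, with Benjamini-Hochberg adjustment over all 18072 genes tested.

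These counts stand beside the share of all tested genes called in each direction. With NAA in the wild type 1 of the 10 rose and 3 fell, where 3.35% of all genes rose and 5.0% fell. Median-ratio scaling of the libraries changed the split of all genes from 605 higher and 904 lower to 872 higher and 681 lower, with the same 4 members called. In the labelled libraries, 1 of 10 rose and 0 fell with NAA, against 0.376% and 0.0609% of all genes. Between genotypes under mock 1 was higher and 3 were lower, and the background was much larger, at 15.3% higher and 23.5% lower. Under NAA 4 were higher and 2 lower, against 19.2% and 24.6%. The median log2 fold change of the 10 genes, in this order, was -0.28, 0.00, -0.25 and -0.06, and that of all tested genes was -0.06, -0.04, -0.07 and -0.05.

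**Figure D1:**
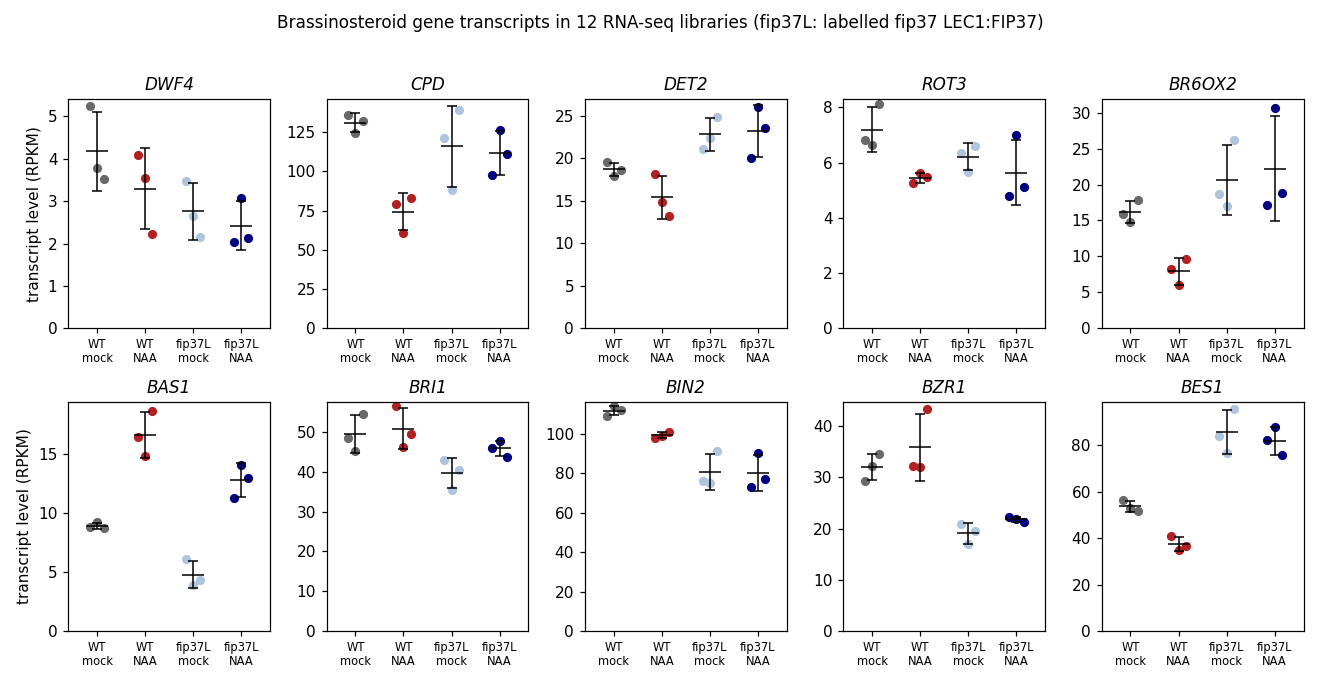
Transcript level (RPKM, axes from 0) of each of the 10 genes in the 12 libraries, with points for single libraries and black bars for the group mean ± SD (n = 3). BAS1 lies higher with NAA in both genotypes, while CPD, BR6OX2 and BES1 lie lowest in the wild-type NAA libraries.

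Levels per gene length differed widely within the set. CPD had the highest mean over the 12 libraries, 108 RPKM, followed by BIN2 with 92.9 RPKM and BES1 with 64.7 RPKM. DWF4, an early and often limiting step of the pathway, had the lowest mean, 3.16 RPKM, and ROT3 the next lowest, 6.12 RPKM. The ratio of the highest to the lowest library was largest for BR6OX2 (5.13) and BAS1 (4.80) and smallest for BIN2 (1.57) and BRI1 (1.59). It did not divide synthesis from signalling genes, as BES1 (2.75) lay above DWF4 (2.58), CPD (2.28), DET2 (1.97) and ROT3 (1.69).

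CPD encodes a P450 that oxidizes brassinosteroid precursors, and mutants without it are dwarfs. In the wild type its level was 136, 124 and 132 RPKM with mock and 78.9, 60.9 and 83.1 RPKM with NAA. All 3 NAA libraries lay below all 3 mock libraries, and CPD fell by 0.82 on the log2 scale (SE 0.17, limma adjusted p = 0.0143). The labelled libraries held 121, 88.0 and 139 RPKM with mock and 97.8, 126 and 111 RPKM with NAA. These groups overlapped, and the log2 fold change was -0.04 (95% interval -0.41 to 0.34). Under NAA the labelled libraries had more CPD than the wild type, by a log2 fold change of 0.59 (SE 0.17, limma adjusted p = 0.016), and under mock the genotypes overlapped.

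BR6OX2 encodes the P450 of the last steps, which makes brassinolide. Its wild-type levels were 15.9, 14.7 and 17.8 RPKM with mock and 8.22, 5.97 and 9.61 RPKM with NAA. The groups did not overlap, and BR6OX2 fell by 0.96 on the log2 scale (SE 0.23, limma adjusted p = 0.024). Labelled libraries held 18.7, 17.0 and 26.2 RPKM with mock and 17.2, 30.6 and 18.9 RPKM with NAA. One library in each of these groups was far above the other two, and the log2 fold change with NAA was 0.08 (95% interval -0.41 to 0.58). Under NAA every labelled library exceeded every wild-type library, with a log2 fold change of 1.36 (SE 0.23, limma adjusted p = 0.000547), the largest between genotypes among the 10 genes in either treatment.

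DET2, a steroid reductase early in the pathway, did not pass the test with NAA in the wild type, where it was 19.5, 17.9 and 18.7 RPKM with mock and 18.2, 14.9 and 13.2 RPKM with NAA. Labelled seedlings gave 21.1, 22.4 and 24.9 RPKM with mock and 20.0, 26.1 and 23.6 RPKM with NAA. These lay above the wild type in both treatments. DET2 overlaps CAC3, which was 68.9 to 102 RPKM in the wild type and 51.4 to 65.3 RPKM in the labelled libraries, several times the level of DET2 and lower where DET2 was higher, and its part in the DET2 values was not tested. The difference of DET2 passed under NAA (log2 fold change 0.56, SE 0.14, limma adjusted p = 0.00559) and not under mock (0.27, SE 0.14, limma adjusted p = 0.134). The latter passed in 5 of the 8 other settings, with a limma adjusted p of 0.00952 after median-ratio scaling. Those 5 settings called 42.9% to 56.4% of all genes under mock, where the fit used here called 38.8%.

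The P450s DWF4 and ROT3 hydroxylate the sterol side chain. DWF4 was 5.23, 3.77 and 3.51 RPKM in wild-type mock, and its other groups ran from 2.23 to 4.09 RPKM (wild-type NAA), from 2.15 to 3.48 RPKM (labelled mock) and from 2.03 to 3.08 RPKM (labelled NAA). Under mock the genotypes did not overlap, with a log2 fold change of -0.46 (limma adjusted p = 0.0979). ROT3 was 6.83, 6.64 and 8.11 RPKM in wild-type mock and 5.27, 5.63 and 5.46 RPKM in wild-type NAA. These groups did not overlap either, yet the log2 fold change of -0.34 did not pass (limma adjusted p = 0.155). The labelled libraries spanned 5.67 to 6.62 RPKM with mock and 4.79 to 7.0 RPKM with NAA, overlapping each other. For both genes values this low are compressed by the added 1 RPKM.

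BAS1 encodes a P450 that inactivates brassinosteroids, and it was the member that changed with NAA in both genotypes. Its wild-type levels were 8.77, 9.20 and 8.67 RPKM with mock and 16.4, 14.8 and 18.6 RPKM with NAA. That was a rise of 0.83 on the log2 scale (SE 0.15, limma adjusted p = 0.00699). The labelled libraries held 6.08, 3.88 and 4.36 RPKM with mock and 11.2, 14.1 and 12.9 RPKM with NAA, a rise of 1.26 (SE 0.15, limma adjusted p = 0.00304). The 4 groups did not overlap one another. They ranked, from the lowest, as labelled mock, wild-type mock, labelled NAA and wild-type NAA. Under mock the labelled libraries were lower by a log2 fold change of -0.79 (SE 0.15, limma adjusted p = 0.00149), and under NAA the difference of -0.36 did not pass (limma adjusted p = 0.0727).

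BRI1, the receptor kinase, did not pass the test in any comparison. It was 48.3, 45.2 and 54.5 RPKM in wild-type mock and 56.5, 46.3 and 49.5 RPKM in wild-type NAA, which overlapped. The labelled libraries held 43.0, 35.5 and 40.5 RPKM with mock and 46.0, 47.6 and 43.8 RPKM with NAA. Its lowest group, labelled mock, lay below wild-type mock without overlap, by a log2 fold change of -0.31 (SE 0.12, limma adjusted p = 0.0571).

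BIN2, the kinase that inhibits BZR1 and BES1, was 109, 114 and 112 RPKM in wild-type mock and 98.0, 98.6 and 101 RPKM in wild-type NAA. The NAA libraries were all lower, by a log2 fold change of -0.17 that did not pass (limma adjusted p = 0.4). The labelled libraries held 76.1, 74.8 and 91.3 RPKM with mock and 72.8, 90.3 and 77.0 RPKM with NAA. They lay below the wild type in both treatments, with log2 fold changes of -0.47 (SE 0.11, limma adjusted p = 0.00656) under mock and -0.31 (SE 0.11, limma adjusted p = 0.0418) under NAA. The second of these calls was close to the threshold. It was kept in 3 of the 12 fits that left out 1 library (the second or the third labelled mock library or the second labelled NAA library), and quantile normalization reduced the log2 fold change to -0.05 (limma adjusted p = 0.635). The call was also lost with only the groups compared (-0.31, limma adjusted p = 0.142), in a fit that called 30.1% of all genes.

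The transcription factors BZR1 and BES1, close relatives that act in the same step, differed between genotypes in opposite directions. BZR1 was 29.4, 32.1 and 34.5 RPKM in wild-type mock and 32.3, 32.0 and 43.4 RPKM in wild-type NAA. In the labelled libraries it was 20.8, 16.9 and 19.5 RPKM with mock and 22.2, 21.9 and 21.2 RPKM with NAA. All 6 labelled libraries were below all 6 wild-type libraries, with log2 fold changes of -0.72 under mock (SE 0.13, limma adjusted p = 0.00133) and -0.68 under NAA (SE 0.13, limma adjusted p = 0.00158). NAA did not move BZR1 past the threshold in either genotype.

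BES1 was 56.2, 53.2 and 51.6 RPKM in wild-type mock and 40.9, 34.8 and 36.7 RPKM in wild-type NAA. It fell by 0.51 on the log2 scale with NAA (SE 0.11, limma adjusted p = 0.0191). The labelled libraries held 84.2, 76.9 and 95.7 RPKM with mock and 82.2, 87.8 and 75.7 RPKM with NAA. These overlapped each other and lay above every wild-type library. BES1 was higher there by a log2 fold change of 0.66 under mock (SE 0.11, limma adjusted p = 0.000826) and of 1.11 under NAA (SE 0.11, limma adjusted p = 1.84e-05). Of the 10 genes BES1 alone was called with NAA in the wild type and between genotypes in both treatments. The BES1 locus overlaps RRA3 (AT1G19360), and the use of strand in counting, like that of reads matching both BZR1 and BES1, is among the steps not given in the sources used here. RRA3 was between 12.5 and 21.0 RPKM in all 12 libraries and no higher in the labelled ones (12.5 to 17.0 RPKM) than in the wild type (14.7 to 21.0 RPKM).

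**Figure D2:**
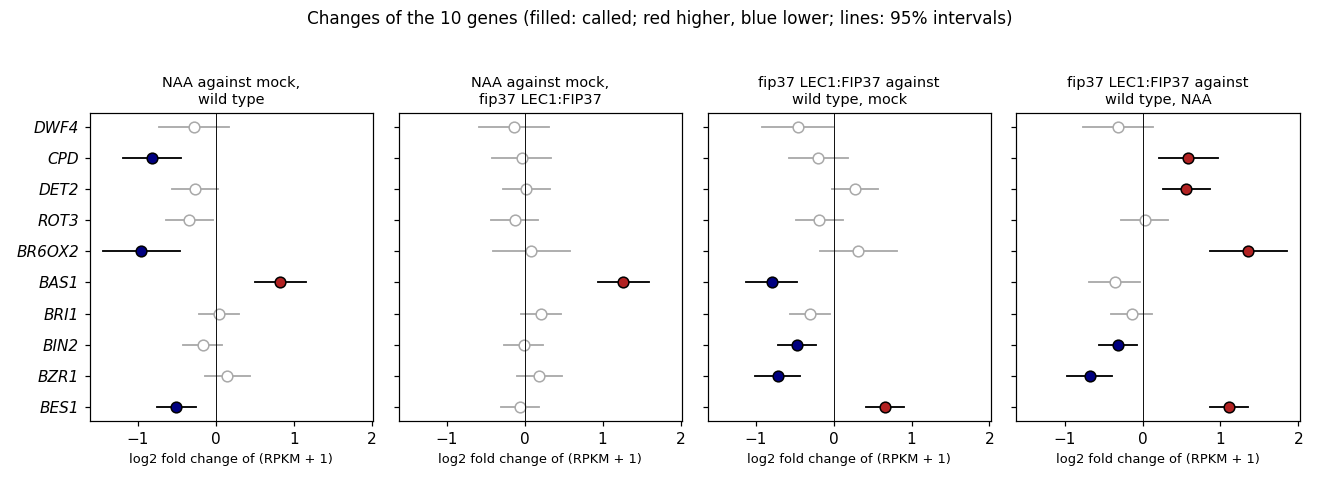
Log2 fold change of (RPKM + 1) for the 10 genes in 4 comparisons, with 95% intervals. Filled points passed the test (red higher, blue lower): BAS1 is red in both NAA panels, and BES1 and BZR1 lie on opposite sides of 0 in both genotype panels.

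Tissue markers moved with some of these groups. The summed level of 3 genes of green tissue was 22764 to 24262 RPKM in wild-type mock, 17006 to 19538 RPKM in wild-type NAA and 26336 to 32878 RPKM in the 6 labelled libraries. BES1 ranked these 3 sets of libraries in the same order, and CPD and BR6OX2 were likewise lowest in wild-type NAA. Of these 3 markers 0 passed the test with NAA in the wild type, and 2 were higher in the labelled libraries in both treatments. The summed level of 4 root genes was 422 to 501 RPKM, 246 to 336 RPKM and 734 to 1247 RPKM in the same order, and most of it was PYK10. Of these 4 genes 2 fell with NAA in the wild type, and between genotypes 1 was higher and 2 lower under mock and 1 higher under NAA. Markers of the shoot meristem summed to 1.80 to 3.99 RPKM in the wild type and 15.6 to 24.5 RPKM in the labelled libraries, mostly from STM, with WUS and CLV3 at most 2.23 RPKM. Flower markers stayed under 1 RPKM in sum in every library. In bulk seedlings, fewer cells of a type and less RNA per cell cannot be told apart, and the part of tissue makeup in these results was not tested. The part of the clock was not tested either.

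The falls of CPD, BR6OX2 and BES1 with NAA in the wild type rested on small groups. Without the third wild-type NAA library, the one that stood apart, CPD, BR6OX2 and BES1 kept their calls with log2 fold changes of -0.91, -1.09 and -0.50, and BAS1 with 0.75. That fit called 22.8% of all genes, against 8.35% with all 12 libraries. Leaving out the first or the third mock library or the second NAA library ended the call of all 3, with adjusted p between 0.0596 and 0.104. The log2 fold changes in these fits stayed between -0.69 and -0.81 for CPD, -0.79 and -0.97 for BR6OX2 and -0.46 and -0.54 for BES1, and the share of all genes called was 2.63% to 3.77%. Leaving out the second mock library ended those of BR6OX2 (0.0613) and BES1 (0.0668), and leaving out the first NAA library that of BR6OX2 (0.0511). BAS1 kept its call in all 12 such fits. Between genotypes, leaving out the third wild-type NAA library added calls of DWF4 (-0.46, limma adjusted p = 0.0434) and BRI1 (-0.31, limma adjusted p = 0.0401) as lower under mock. These 2 log2 fold changes were the same with all 12 libraries. Under NAA leaving out that library added DWF4 (-0.51, limma adjusted p = 0.0448) as lower and ended the call of BIN2 (limma adjusted p = 0.0588). The fit without it called 49% of all genes under mock and 50.5% under NAA, against 38.8% and 43.8% with all 12 libraries. The call of CPD under NAA was lost without the second wild-type NAA library (limma adjusted p = 0.069) or the second labelled NAA library (limma adjusted p = 0.06).

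Whether NAA acted differently in the 2 genotypes was tested directly, as the NAA effect in the labelled libraries minus that in the wild type. Of the 10 genes 0 passed in limma, where 0.636% of all genes passed as higher and 1.06% as lower. The unadjusted limma p was under 0.05 for CPD (0.0076), BR6OX2 (0.00706) and BES1 (0.0162), and for 3210 of all 18072 genes tested. The estimates were 0.78 for CPD (95% interval 0.25 to 1.31, limma adjusted p = 0.124), 1.04 for BR6OX2 (0.34 to 1.74, adjusted p = 0.122), 0.45 for BES1 (0.10 to 0.80, adjusted p = 0.172) and 0.44 for BAS1 (-0.03 to 0.90, adjusted p = 0.309). Without the third wild-type NAA library CPD (0.87, limma adjusted p = 0.0375) and BR6OX2 (1.17, limma adjusted p = 0.032) passed, in a fit that called 12.4% of all genes. With all 12 libraries weighted equally no member's NAA effect was shown to differ between genotypes, while limma's array quality weights called CPD, BR6OX2, BAS1 and BES1 with 30.4% of all genes. Quantile normalization turned the split of all genes called for this difference from 115 higher and 191 lower to 257 higher and 236 lower, with 0 members called in either.

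Around the 10 genes, a wider list of 45 genes of the same pathway and its responses was read in the same fit. Of these, 10 were listed as response genes, and 38 of the 45 passed the filter on low values. With NAA in the wild type 3 rose and 4 fell, beside the 3.35% and 5.0% of all tested genes. DWF1, a sterol reductase upstream of the hormone's own enzymes, fell from 180, 179 and 209 RPKM to 69.7, 67.9 and 137 RPKM, by 1.12 on the log2 scale (limma adjusted p = 0.0108), and the highest of its NAA values was from the library that stood apart. FK, another sterol reductase, fell by 0.67, and this call was lost in 6 of the 12 fits that left out 1 library and with only the groups compared (limma adjusted p = 0.117). BEN1, implicated in brassinosteroid inactivation, rose by 0.76 (limma adjusted p = 0.0031), in the same direction as BAS1. The transcription factor genes BEE3 and BIM3 fell by 0.87 and 0.67. Without the third mock library DWF1, BEE3 and BIM3 lost their calls, as did BEE3 and BIM3 without the second mock library and BEE3 without the second NAA library. DWF1 also lost its call with only the groups compared (limma adjusted p = 0.066), in a fit that called 4.55% of all genes. The other genes that rose, named after their values were seen, were BRL3, a relative of BRI1 (0.58), and BEH3, a relative of BZR1 (0.61). In the labelled libraries 0 of the 38 passed with NAA in limma. Without the third wild-type NAA library, 39 were tested, and 6 rose and 8 fell in the wild type, where 10.7% and 12% of all genes then did.

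Between genotypes more of the wider list was lower than higher in the labelled libraries. Under mock 22 of 38 were lower and 3 higher, with a median log2 fold change of -0.48, beside 23.5% lower, 15.3% higher and a median of -0.07 over all genes. Under NAA 19 were lower and 6 higher, with a median of -0.41, beside 24.6%, 19.2% and -0.05. Of its response genes, 6 of the 9 tested were lower under mock and 5 under NAA. TCH4, a cell-wall enzyme gene, was 441, 555 and 557 RPKM in wild-type mock and 88.1, 83.6 and 71.8 RPKM in labelled mock, a log2 fold change of -2.65 (SE 0.24, limma adjusted p = 1.21e-05), and -2.88 under NAA. The bHLH factor gene BEE1 (-2.06 and -1.58), the expansin gene EXPA8 (-1.95 and -2.0) and KCS1 of wax and cuticle lipid synthesis (-1.80 and -1.91) were also lower in both treatments. CYP72C1, a P450 that lowers brassinosteroid levels, was lower in both as well (-1.24 and -1.72), and DWF1 was lower under mock (-1.46). The kinases BIL1 (-0.69 and -0.64) and BIL2 (-0.52 and -0.55), relatives of BIN2 named after their values were seen, were lower in both treatments, as BIN2 was. Those higher under mock, named likewise, were BEH1 (0.54), BEH3 (1.11) and IBH1 (0.66), the first pair being relatives of BZR1 and BES1. Their relatives BEH2 (-1.04) and BEH4 (-1.02), named likewise, were lower under mock. They were among the 5 of the 7 tested transcription factor genes of the wider list that were lower. For the difference of the NAA effects 0 of 38 passed in limma, and without the third wild-type NAA library 4 of 39 passed as higher and 4 as lower, beside 5.86% and 6.52% of all genes.

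**Figure D3:**
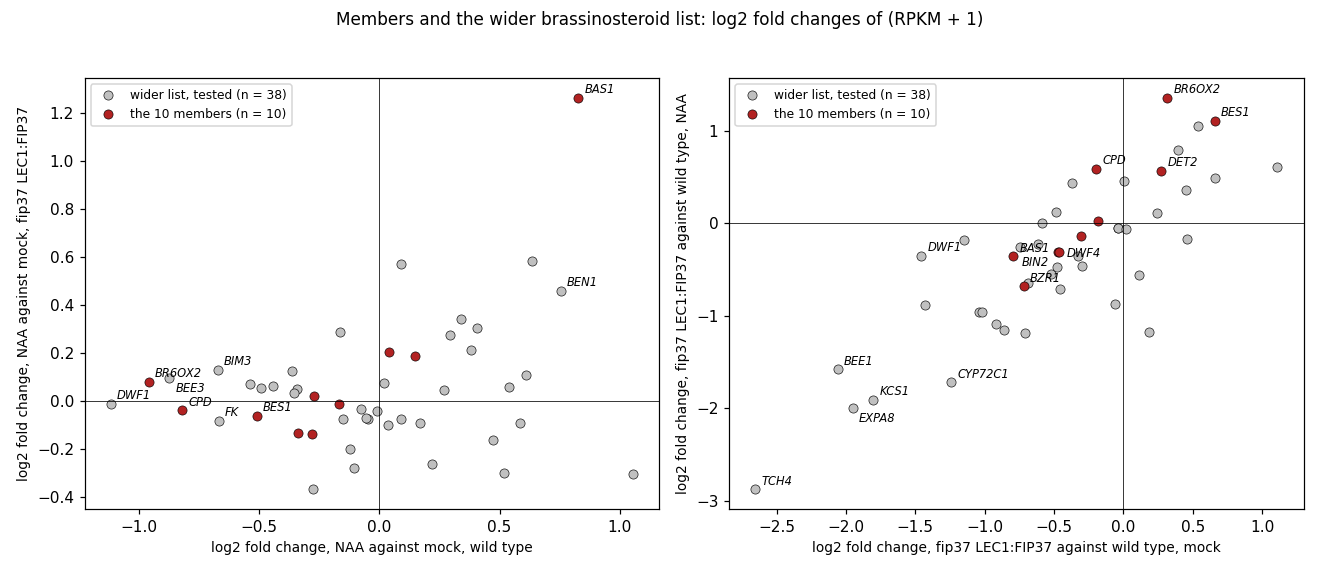
Log2 fold changes of (RPKM + 1) of the 10 genes (red) and the 38 tested genes of the wider list (grey), with NAA in the wild type against NAA in the labelled libraries (left) and the genotype difference under mock against that under NAA (right). On the left BAS1 stands at the upper right and CPD, BR6OX2 and BES1 lie left of 0 near the horizontal line, and on the right TCH4 lies farthest from 0 at the lower left.

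The m6A lists held peaks on 6 of the 10 genes, and 3 of them, BRI1, BIN2 and BZR1, had a peak in both wild-type replicates under mock and under NAA. At a q-value of at most 0.001 this held for BRI1 and BZR1 under mock alone and for BIN2 under NAA alone. In these lists the authors called peaks in each replicate against its own input, and a peak was counted as reproducible when the peaks of both replicates shared 50% or more of the shorter one and had their summits in the gene. Of all tested genes 21.6% had such a peak under mock and 17.1% under NAA, and no share was taken at a q-value of at most 0.001. Coordinates are on TAIR10, and fold enrichment is the authors' value for each peak over its input.

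On BRI1 the peak lay at chr4:18328301-18328536 in the first mock replicate, with a fold enrichment of 1.44. The other mock replicate had 1.53, and the NAA replicates 1.27 and 1.35. These were weak peaks within their lists, at or below the 16.8th percentile of fold enrichment. On BIN2 the peak lay at chr4:10298929-10299309, with 1.45 and 1.29 under mock and 1.57 and 1.55 under NAA. These were weak too, at percentiles of 10.9 and 2.5 under mock and 24.5 and 21.8 under NAA.

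BZR1 had a first peak at chr1:28185784-28186032 in all 4 lists, with fold enrichments of 1.62 and 1.48 under mock and 1.57 and 1.51 under NAA. Within the lists this peak was weak as well, at percentiles from 13.3 to 25.0. A second peak, at chr1:28187004-28187209, was in both mock lists, with 2.13 and 1.80, and in 1 of the 2 NAA lists, with 1.47. The second BZR1 peak was thus in both replicates under mock and in the second replicate alone under NAA, and this difference was not tested. BES1 had a peak in the second mock list (1.95) and the first NAA list (2.099), at chr1:6690577-6690778 in the former, and its summit lies in both BES1 and RRA3. BR6OX2 had a peak in the second mock list alone, at chr3:11812027-11812400 with 2.36. DWF4, CPD, DET2, ROT3 and BAS1 had none in the 4 wild-type lists.

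The lists for the other genotypes have another form, with 1 list per genotype, peaks on exons mostly in steps of 50 nt and a caller not given in the sources used here, so their counts are not compared with the wild type. In tmk4 with NAA 0 of the 10 genes had a peak, where 6.01% of all tested genes had one. In 35S:FIP37 and in 35S:FIP373A the same 4 genes, CPD, BRI1, BIN2 and BES1, had peaks, against 12.5% and 11.3% of all tested genes. They carried 15 peaks in 35S:FIP37 and 10 in 35S:FIP373A, and 8 peaks of each list overlapped a peak of the other (53.3% and 80.0%).

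On BIN2 and BRI1 the 35S lists met the wild-type position. For BIN2 the peak at chr4:10298883-10299232 in 35S:FIP37 overlapped those of all 4 wild-type lists, and for BRI1 that at chr4:18328207-18328406 did. CPD, with no wild-type peak, had one at chr5:1705721-1705907 in both 35S lists, with the authors' enrichment values of 2.23 and 2.40. BES1 had 5 and 3 peaks, 0 of which overlapped its wild-type peaks. BZR1 had 0 in the 35S lists. Peaks on the wider list were on 12 of 45 genes under wild-type mock, 10 under wild-type NAA, 3 in tmk4, 6 in 35S:FIP37 and 4 in 35S:FIP373A, beside 21.6%, 17.1%, 6.01%, 12.5% and 11.3% of all tested genes. The bases differ, as the 45 include 7 genes that did not pass the filter on low values.

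**Figure D4:**
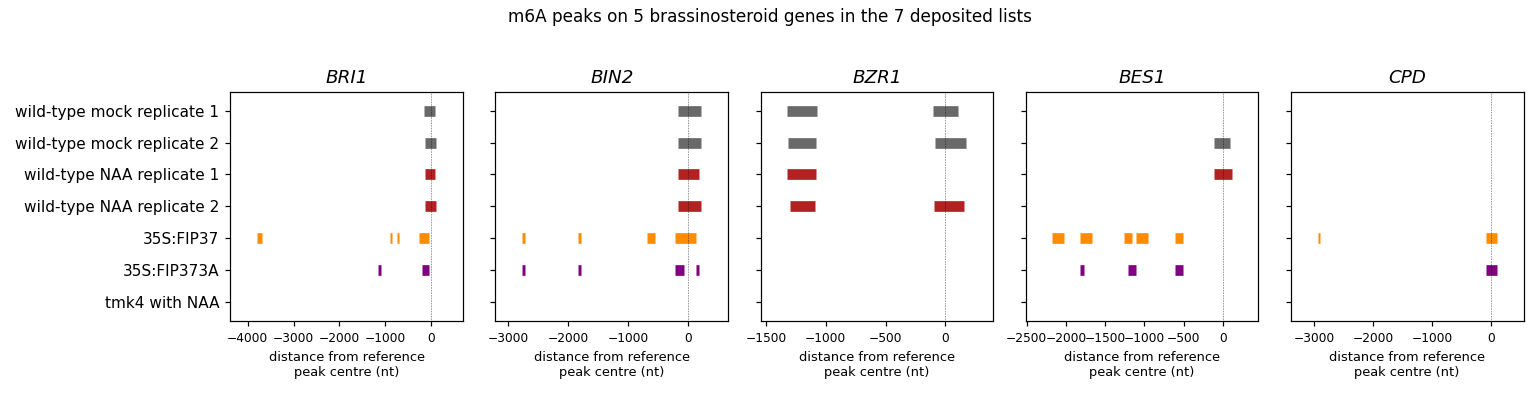
Spans of m6A peaks on 5 of the genes in the 7 lists, as distance in nt from the centre of 1 reference peak per gene (the wild-type peak with the highest fold enrichment, or for CPD the 35S peak with the highest enrichment). BIN2 and BRI1 share a position across the wild-type and 35S lists, and the second BZR1 peak, at 0, is missing from the first NAA list.

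The 4 genes with the largest SD of log2(RPKM + 1) over the 12 libraries each had close matches in pattern among the 18072 genes, by Pearson correlation of the same values. The 12 libraries fall into 4 groups, so these values mostly describe the order of the group means. BR6OX2 was most like AT1G78060 (r = 0.983), PIF4 (0.980) and emb1703 (0.979), and BAS1 was most like AT5G62580 (0.981), the auxin-response repressor gene IAA13 (0.974) and AT3G54000 (0.951). BZR1 was most like BETA-OHASE 2 (0.983), TRM5 (0.978) and P1R3 (0.977). BES1 was most like AT2G21860 (0.993), mtACP3 (0.993) and PSRP3/1 (0.992).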

How the data were processed

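The authors deposited 1 table of RPKM per gene. The submitters' processing notes name STAR 2.5.3a and TAIR10, while the tool that counted reads, and its handling of strand and of multiply matching reads, stay unnamed (not given in the sources used here). Wild-type peaks were called by the authors in each replicate against its input, by MACS 2.2.6 with fragments extended to 200 nt and q-values up to 0.05, per the file headers. These deposited lists give pileup signal, -log10 p-value and q-value, and fold enrichment (a ratio). The authors' other 3 deposited lists give an enrichment ratio and a score read from its values as a p-value. The headers count 6420713 to 6714976 immunoprecipitated tags kept per wild-type library. The RPKM table has no read totals, so no counting interval is given.

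Levels were compared with limma 3.58.1 (limma-trend, R 4.3.3) on log2(RPKM + 1), which understates changes of low genes, in 1 model of 12 libraries in 4 groups; the code was tested on simulated data. Peaks of the wild-type lists were assigned to genes with RefSeq gene spans of TAIR10.1; of 10891 gene-named peaks in the other lists 100.0% lay in the span of the named gene. Named genes were the 10 members, up to 5 called genes of the wider list per comparison with the largest change, and the 3 most similar genes of the 4 most variable members. Overlapping neighbours, and BRL3, BEH1, BEH2, BEH3, BEH4, BIL1, BIL2 and IBH1 of the wider list, were named after their values were seen. The members and lists were chosen with earlier results of these data known. Alternatives were other pseudocounts, filters, scalings, weights, a replicate block, and leaving out each library.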

Additional observations from a re-analysis of the deposited data

How the results depend on the processing

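Members called with NAA in the wild type were 4, in a fit that called 8.35% of all genes. They were 1 to 4 when 1 library was left out, with 2.63% to 22.8% of all genes called and BAS1 called each time. limma's array quality weights, which gave the third wild-type NAA library a weight of 0.109, called 7 there, 7 instead of 4 between genotypes under mock, and 4 instead of 0 for the difference of the NAA effects, in fits that called 51.4%, 56.4% and 30.4% of all genes. That algorithm warned that it had not converged. A gene-by-gene algorithm, chosen after seeing the data, called 5, 7 and 4, with 41.8%, 55.8% and 23.4% of all genes. Leaving out 1 library gave 0 to 2 for the difference, the 2 without the third wild-type NAA library, where 12.4% of all genes were called. The other fits of this kind called 0.376% to 1.27% of all genes, against 1.69% with all 12 libraries. Reproducible peaks under mock were on 3 members, and the lists of single replicates gave 3 and 5. Under NAA a q-value of at most 0.001 left 1, BIN2, and under mock it left 2, BRI1 and BZR1. The cause was not tested. Over all genes, NAA in the wild type gave 1509 calls, 9282 with array weights, 7562 with the gene-by-gene algorithm and 805 with only the groups compared.

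The replicate block (the replicate number as a term) called 5 instead of 6 members between genotypes under NAA, and 42.9% instead of 43.8% of all genes. It ended the call of BIN2 (-0.31, limma adjusted p = 0.0575) and changed no other member's call. It also ended the call of FK with NAA in the wild type (-0.67, limma adjusted p = 0.0559), as did no filter on low values (0.0601). Same-numbered libraries did not all deviate together (correlations of 0.279, -0.046 and 0.296 for NAA in the wild type), so the numbers were not taken as pairs.

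Signs turned only for members that passed no test in that comparison. Over the fits that left out 1 library, the log2 fold change with NAA in the wild type ran from -0.038 to 0.113 for BRI1. With NAA in the labelled libraries it ran from -0.223 to 0.103 for CPD, from -0.063 to 0.12 for DET2, from -0.164 to 0.259 for BR6OX2, from -0.102 to 0.078 for BIN2 and from -0.133 to 0.023 for BES1. Between genotypes under NAA it ran from -0.115 to 0.118 for ROT3. The difference of the NAA effects ran from -0.048 to 0.281 for DWF4 and from -0.042 to 0.18 for BZR1. Median-ratio scaling gave 0.002 for CPD and 0.026 for BIN2 with NAA in the labelled libraries, and quantile normalization gave 0.075 for CPD, 0.091 for BIN2 and 0.033 for BES1 there and 0.108 for BRI1 between genotypes under NAA. Array weights gave -0.021 for BRI1 with NAA in the wild type. They gave, by the default and then the gene-by-gene algorithm, -0.064 and -0.057 for BR6OX2 with NAA in the labelled libraries, -0.076 and -0.059 for ROT3 between genotypes under NAA, and -0.069 and -0.075 for the difference in DWF4.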
